A study of Mus musculus with 11 samples.

Results

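The genes described are the 7 cyclin-dependent kinase (CDK) inhibitors Cdkn1a, Cdkn1b, Cdkn1c, Cdkn2a, Cdkn2b, Cdkn2c and Cdkn2d, and the Rb family genes Rb1, Rbl1 and Rbl2. They were chosen by symbol, and all 10 were found among the 20640 gene symbols of the deposited table. Expression was measured by RNA-seq in 11 libraries of mouse limb muscle stem cells. All mice carried Pax7-CreERT2;Rosa-YFP, in which Cre made from the Pax7 gene and activated by tamoxifen switches on YFP, so that YFP marks cells that expressed Pax7 at treatment, and their descendants. All received oral tamoxifen (240 mg/kg) for 5 days at an age of 12 to 14 weeks. Cells were sorted as YFP+ and negative for the lineage stain (Sca-1, CD31 and CD45). Middle-aged mice (the labels say 10 to 14 months, the extraction protocol 12 to 14) gave 3 libraries, with no VCAM1 gate in their labels. Geriatric mice (over 28 months) gave 3 libraries of VCAM1-high, 2 of VCAM1-low and 3 of VCAM1-negative cells, VCAM1 being a surface protein of quiescent muscle stem cells. A comparison with the middle-aged group therefore changes age, gating and time since labelling together, and these cannot be told apart. The labels do not say whether a library came from 1 mouse or several, so p-values measure the spread between these libraries, which may be technical.

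Adult muscle stem cells rest outside the cell cycle and enter it after injury. The CIP/KIP inhibitors p21 (Cdkn1a), p27 (Cdkn1b) and p57 (Cdkn1c) bind cyclin-CDK complexes broadly, whereas the INK4 inhibitors p16 (Cdkn2a), p15 (Cdkn2b), p18 (Cdkn2c) and p19Ink4d (Cdkn2d) bind CDK4 and CDK6 and keep them from D-type cyclins. Active CDKs phosphorylate the pocket proteins Rb (Rb1), p107 (Rbl1) and p130 (Rbl2), which otherwise hold E2F factors and keep the genes of DNA replication off. Cdkn1a is a target of p53 and of MyoD, and Cdkn2a is known as a senescence gene kept silent by Polycomb proteins.

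The sequences just upstream of the start sites are given for Cdkn1a and Cdkn2d, which passed in the results below, and for Rbl1, which did not. RefSeq windows on build GRCm38.p6 were found for 8 of the 10 members (Cdkn1c and Rb1 are named only), and each window is the 250 bases before an annotated start, 5′ to 3′ on the gene's strand. Cdkn1a had 2 annotated starts, 2790 bases apart. Capitals mark, in the upstream Cdkn1a window, a p53 site; in the downstream one GC boxes (GGGCGG) and the TATA-like TATAAG; in Cdkn2d GC boxes; and in Rbl1 an E2F motif (TTTCGCGC). All motifs were searched on both strands, and none of the marked ones overlap.
Cdkn1a upstream start, chr17:29090729-29090978 (+): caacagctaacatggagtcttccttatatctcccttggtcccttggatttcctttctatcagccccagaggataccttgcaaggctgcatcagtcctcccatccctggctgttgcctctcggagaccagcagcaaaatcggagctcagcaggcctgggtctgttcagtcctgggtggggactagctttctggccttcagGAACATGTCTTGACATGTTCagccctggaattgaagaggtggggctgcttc
Cdkn1a downstream start, chr17:29093519-29093768 (+): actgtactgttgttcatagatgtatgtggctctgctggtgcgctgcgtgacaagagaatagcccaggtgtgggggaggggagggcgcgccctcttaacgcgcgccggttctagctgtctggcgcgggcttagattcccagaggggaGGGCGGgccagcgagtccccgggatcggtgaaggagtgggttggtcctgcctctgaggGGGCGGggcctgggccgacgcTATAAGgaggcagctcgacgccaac
Cdkn2d, chr9:21291210-21291459 (-): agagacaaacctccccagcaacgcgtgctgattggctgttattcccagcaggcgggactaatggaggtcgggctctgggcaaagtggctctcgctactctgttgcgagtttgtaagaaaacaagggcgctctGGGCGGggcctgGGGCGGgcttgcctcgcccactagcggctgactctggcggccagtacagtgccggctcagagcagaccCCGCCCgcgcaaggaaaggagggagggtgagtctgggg
Rbl1, chr2:157204535-157204784 (-): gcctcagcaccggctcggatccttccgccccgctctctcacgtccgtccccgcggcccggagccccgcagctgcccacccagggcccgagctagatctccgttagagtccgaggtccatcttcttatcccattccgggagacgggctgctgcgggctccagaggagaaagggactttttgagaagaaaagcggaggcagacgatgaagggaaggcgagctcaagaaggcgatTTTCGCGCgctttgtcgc
The p53 site lay 51 bases before the upstream Cdkn1a start. The search allowed at most 1 mismatch outside the cores of the motif, and 15 of 32851 windows of this length (0.0457%) held such a match. GC boxes, at 104 and 46 bases before the downstream Cdkn1a start and at 118, 106 and 38 before that of Cdkn2d, were common, in 32.7% of windows. TATAAG, 25 bases before the downstream Cdkn1a start, was in 6.65%. The E2F motif of Rbl1, 18 bases before its start, was in 0.256%. A match describes letters in a window and not a bound site.

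Levels are given as RPKM (reads scaled by gene length and by the library's mapped reads), which allows genes to be compared per length, though the labels do not state the lengths used. Cdkn1a was the highest of the 10 members in 11 of 11 libraries and ranked 100 to 298 among all genes of a library. Cdkn2d came second in 8 libraries and Cdkn1c in the other 3. Cdkn2a was the lowest in 10 libraries and Rbl1 in 1. Between these ends the mean levels over the 8 geriatric libraries were 23.1 ± 6.17 RPKM (SD, n = 8) for Cdkn2c, 17.1 ± 5.97 for Rbl2 and 5.76 ± 1.26 for Rb1. Those of Cdkn2b (1.88 ± 0.413), Cdkn1b (1.48 ± 0.351) and Rbl1 (0.861 ± 0.342) stood near 1 or 2 RPKM. Cdkn1a thus exceeded Cdkn1b, the p27 gene of the same family, 153-fold to 361-fold in RPKM.

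**Figure D1:**
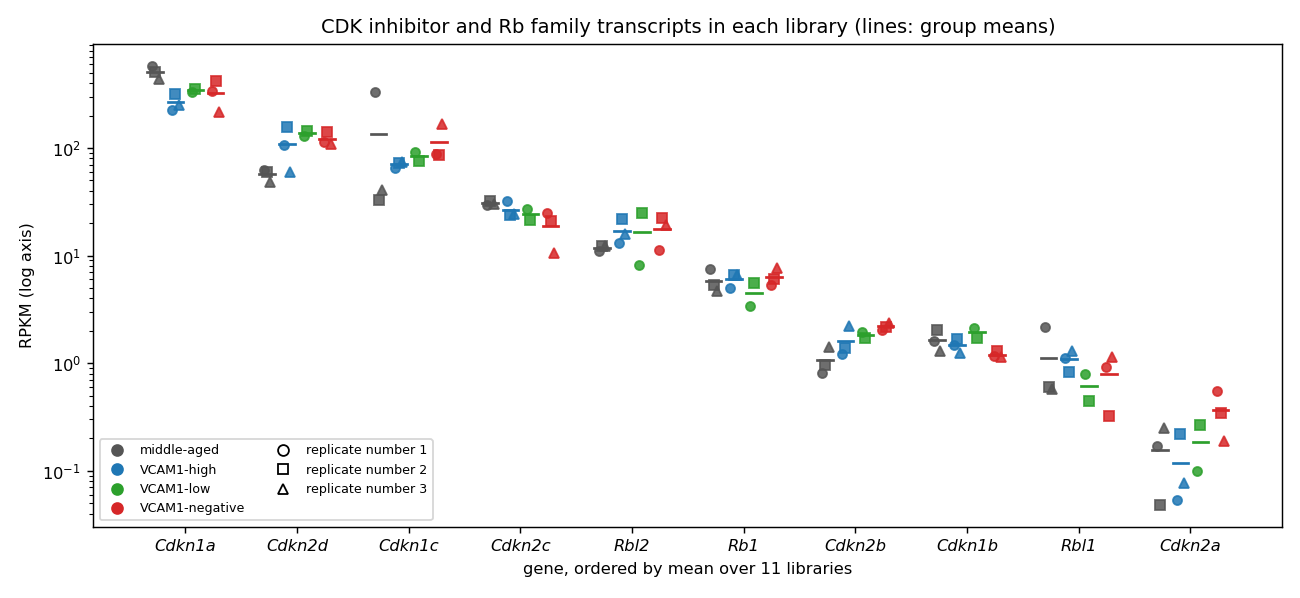
Level of each member in RPKM (log axis) in the 11 libraries, with colours for the 4 groups, symbols for replicate numbers and lines for group means. Cdkn1a is highest throughout, Cdkn1c has 1 middle-aged library at 334 RPKM, and Cdkn2a stays under 1 RPKM.

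Libraries held an estimated 20.1 to 29.8 Mreads (M for mega). Summed muscle stem cell markers (9 of 9 genes found, none at 0), Vcam1 among them, were 2811 to 3705 RPKM in middle-aged libraries. They were 1896 to 3787 in VCAM1-high, 1890 to 2306 in VCAM1-low and 1403 to 2133 in VCAM1-negative libraries. Pax7 itself was low, at 1.71 to 7.85 RPKM. Fibro-adipogenic marker sums were 517 to 1277 RPKM, with both ends in middle-aged libraries. The part of these differences in the results was not tested. Vcam1 ranged from 188 to 418 RPKM in VCAM1-high, 115 to 177 in VCAM1-low, 48.6 to 122 in VCAM1-negative and 230 to 344 in middle-aged libraries. Summed myofibre markers reached 645 to 6635 RPKM in VCAM1-negative libraries against 49.8 to 292 elsewhere, and their part in the results for that gate was not tested. VCAM1-high replicate 3 had the highest macrophage marker sum (653 RPKM, against 2.36 to 189 elsewhere). Erythroid marker sums were 194 to 650 in VCAM1-low and VCAM1-negative libraries and 5.77 to 165 in middle-aged ones. In VCAM1-high replicates 1 to 3 they were 14.0, 54.0 and 488. The libraries numbered 3 stood apart: 9 genes were at 0 in all 8 libraries numbered 1 or 2 and at 5 RPKM or more in all 3 numbered 3, and no gene showed the reverse. None of the 10 members was among those 9. In such bulk libraries, fewer cells of a type and less RNA per cell cannot be told apart.

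Cdkn1a, the p21 gene, was lower in geriatric than in middle-aged cells. It stood at 578, 505 and 435 RPKM in middle-aged replicates 1 to 3. VCAM1-high libraries held 226, 318 and 251 RPKM, VCAM1-low libraries 331 and 354, and VCAM1-negative libraries 340, 416 and 217. All 8 geriatric libraries lay below all 3 middle-aged ones. In a fit of log2(RPKM + 1) with limma over all 11 libraries, with the 3 gates weighted equally, the difference was -0.72 ± 0.20 (SE; adjusted p = 0.0357). The mean fell from 506 ± 71.3 RPKM (SD, n = 3) to 307 ± 69.3 (n = 8). Among all genes tested 15.8% passed in this comparison (adjusted p under 0.05 over 11568 genes), 7.81% being lower, and 4.95% had all geriatric libraries below all middle-aged ones. Of the 9 members that could be tested, 2 passed, Cdkn1a and Cdkn2d.

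The call on Cdkn1a lay near the threshold. Omitting single libraries ended it in 6 of 11 cases: VCAM1-high replicate 1 (adjusted p = 0.0530), VCAM1-low replicate 1 (0.0541) or 2 (0.0757), or middle-aged replicate 1 (0.138), 2 (0.0854) or 3 (0.0665). Geriatric libraries with the same number deviated together, and with them averaged by number (3 against 3) the difference was -0.78 with an adjusted p of 0.0880. Within the replicate numbers, geriatric minus middle-aged Cdkn1a was -0.97 in number 1, -0.48 in number 2 and -0.89 in number 3 on the log2 scale.

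By gate, Cdkn1a in VCAM1-high cells differed from middle-aged cells by -0.94 ± 0.24 (adjusted p = 0.109), with no overlap between the libraries. Genes that passed in this comparison were few (0.605% of those tested), with 0 of 9 members among them. At an unadjusted p under 0.05 there were 2 of 9 members and 14.9% of all genes, and 6.36% of genes lay wholly lower. With the replicate number as a block in all 11 libraries, Cdkn1a passed (-0.94, adjusted p = 0.0236) and so did Cdkn2d (0.81, adjusted p = 0.0479). In that fit 6.98% of genes passed. The data do not settle whether such a block is right here. Numbers 1 and 2 were not told apart between VCAM1-high and middle-aged libraries. The block also pairs VCAM1-negative with middle-aged libraries, whose numbers did not pair. VCAM1-negative cells differed from middle-aged cells by -0.68 ± 0.24 in Cdkn1a (adjusted p = 0.0778) and VCAM1-low cells by -0.55 ± 0.27. These comparisons share the middle-aged libraries. Between VCAM1-negative and VCAM1-high cells the Cdkn1a difference was 0.26, with a 95% interval from -0.27 to 0.78.

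Cdkn2d, the p19Ink4d gene, moved the other way. It stood at 62.6, 59.9 and 48.6 RPKM in middle-aged replicates 1 to 3. The VCAM1-high libraries had 106, 157 and 59.9 RPKM, the VCAM1-low libraries 128 and 145, and the VCAM1-negative libraries 113, 141 and 109. Except for VCAM1-high replicate 3, which lay within the middle-aged range, every geriatric library lay above every middle-aged one. The geriatric mean was 120 ± 30.4 RPKM (SD, n = 8) against 57.0 ± 7.41 (n = 3). On the log2 scale Cdkn2d rose by 1.04 ± 0.24 (SE; adjusted p = 0.0192, limma), where 8.04% of genes passed as higher.

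In VCAM1-negative cells Cdkn2d was 1.07 ± 0.29 above middle-aged cells (adjusted p = 0.0358), the 1 member of 9 tested that passed where 14.4% of all genes did. The libraries did not overlap, as for 18.7% of genes that were wholly higher. VCAM1-low cells showed 1.25 ± 0.33 (adjusted p = 0.0540; 4.11% of genes passed) and VCAM1-high cells 0.81 ± 0.29 (adjusted p = 0.228). Without VCAM1-high replicate 3 the latter was 1.17 and passed (adjusted p = 0.0321). The geriatric call ended without VCAM1-low replicate 2 (adjusted p = 0.0515) or middle-aged replicate 1 (0.0592) or 3 (0.0786), and with libraries averaged by number (0.96, adjusted p = 0.0737). The VCAM1-negative call ended without any of its own libraries or any middle-aged one, with adjusted p from 0.0616 to 0.128. Within replicate numbers the geriatric difference was 0.87, 1.29 and 0.72 for numbers 1, 2 and 3.

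**Figure D2:**
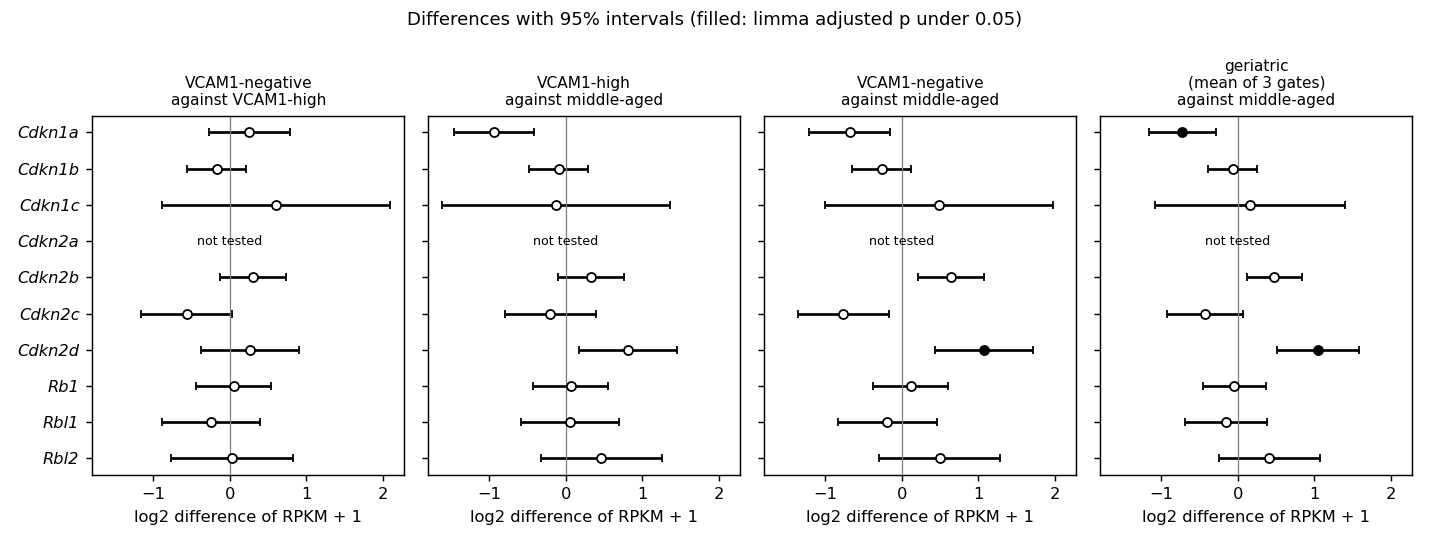
Log2 differences of RPKM + 1 with 95% intervals for the 10 members in 4 comparisons, with filled points where the limma adjusted p is under 0.05 and Cdkn2a not tested. Cdkn1a (-0.72) and Cdkn2d (1.04) are filled in the geriatric comparison and Cdkn2d (1.07) in VCAM1-negative against middle-aged.

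Cdkn1a and Cdkn2d together accounted for much of the inhibitor transcripts, with Cdkn1a at 43.0 to 79.7% and Cdkn2d at 6.22 to 27.3% of the summed RPKM of the 7 inhibitors. The ratio of Cdkn1a to Cdkn2d in RPKM was 9.23, 8.43 and 8.95 in the middle-aged libraries. For VCAM1-high libraries it was 2.12, 2.03 and 4.19, for VCAM1-low 2.58 and 2.44, and for VCAM1-negative 3.004, 2.94 and 1.99. No geriatric ratio reached a middle-aged one, and the VCAM1-high library nearest to them was replicate 3. The pair are the 2 members that passed in the geriatric comparison, in opposite directions. The split of their ratio follows from those calls and is no further support for them. Summed over families, INK4 transcripts were 0.102, 0.172 and 0.169 of CIP/KIP transcripts in middle-aged replicates 1 to 3 and 0.265 to 0.477 in geriatric libraries. The sums take in all 7 inhibitors, and the 0.102 of middle-aged replicate 1 includes Cdkn1c at 334 of 913 RPKM of CIP/KIP transcripts. None of these ratios was tested on its own.

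**Figure D3:**
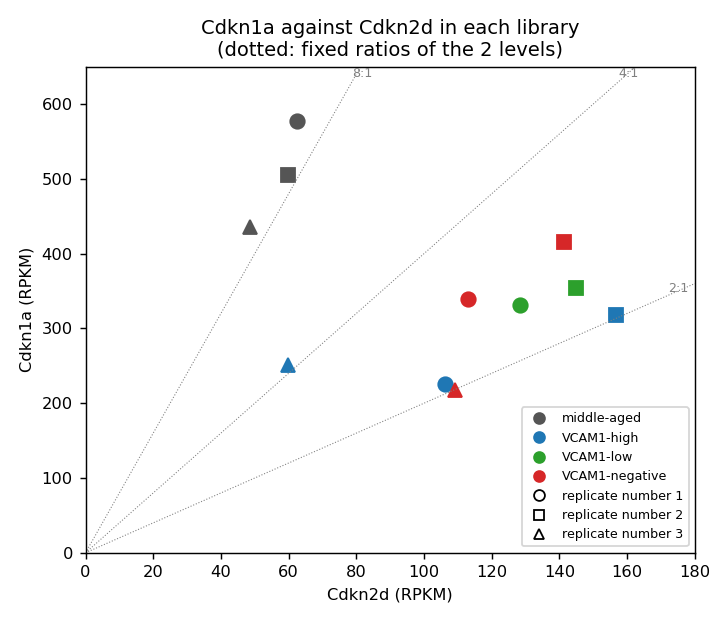
Cdkn1a against Cdkn2d in RPKM, 1 point per library, with dotted lines at fixed ratios. The 3 middle-aged libraries lie at ratios of 8.43 to 9.23 and the 8 geriatric libraries at 1.99 to 4.19. The pair are the members that passed in the geriatric comparison, in opposite directions, so the split follows from those calls.

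Cdkn1c, the imprinted p57 gene, was set by 1 library. Middle-aged replicate 1 held 334 RPKM, and replicates 2 and 3 held 33.1 and 40.2. The VCAM1-high libraries held 65.4, 71.7 and 74.3 RPKM, the VCAM1-low libraries 92.5 and 76.2, and the VCAM1-negative libraries 88.2, 85.9 and 165. All 8 geriatric libraries therefore lay between middle-aged replicates 2 and 3 on one side and replicate 1 on the other. The geriatric difference was 0.16 ± 0.56 (SE; adjusted p = 0.858) with every library and 1.21 ± 0.24 (adjusted p = 0.0291) without middle-aged replicate 1. For VCAM1-negative cells the corresponding values were 0.48 (adjusted p = 0.645) and 1.54 (adjusted p = 0.0252). VCAM1-negative libraries all lay above VCAM1-high ones, as did those of 3.28% of genes, by 0.61 ± 0.68 (adjusted p = 0.899; 0.0932 with the replicate block in the 8 geriatric libraries).

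Middle-aged replicate 1 also held the most transcripts of dividing cells. Its 15 replication genes controlled by E2F summed to 516 RPKM, against 273 to 404 in the others, and 9 of the 15 were highest there. Its 11 mitosis genes summed to 57.8 RPKM. VCAM1-high replicate 3 followed with 51.7, and the other libraries had 6.47 to 18.5. Rbl1 was also highest in middle-aged replicate 1, at 2.17 RPKM against 0.606 and 0.580 in middle-aged replicates 2 and 3. VCAM1-high replicate 3, second in mitosis transcripts, held 74.3 RPKM of Cdkn1c, within the range of the geriatric libraries, and 1.31 RPKM of Rbl1, the next highest after middle-aged replicate 1. The part of cycling cells in the Cdkn1c and Rbl1 values was not tested.

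**Figure D4:**
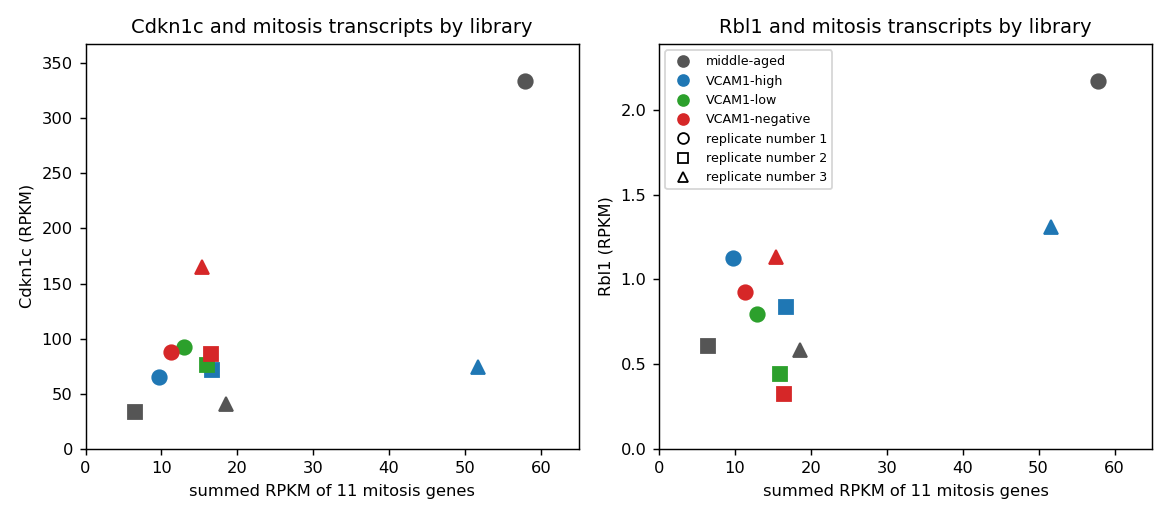
Cdkn1c (left) and Rbl1 (right) in RPKM against the summed RPKM of 11 mitosis genes, 1 point per library. Middle-aged replicate 1 is highest on all axes, with 334 RPKM of Cdkn1c, 2.17 of Rbl1 and a mitosis sum of 57.8.

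Cdkn1b, the p27 gene, lay between 1.14 and 2.14 RPKM in all libraries. The VCAM1-low libraries (2.14 and 1.72) lay above the VCAM1-high ones (1.48, 1.69 and 1.23) and the VCAM1-negative ones (1.16, 1.29 and 1.14). Neither of these differences between gates passed. With only 2 VCAM1-low libraries such a separation is easily reached, and its share over all genes was not counted. Between VCAM1-low and VCAM1-high cells 4 of the 9 members tested did not overlap. The VCAM1-negative libraries also all lay just below the middle-aged ones (1.60, 2.03 and 1.29). That difference was -0.26 ± 0.17 (adjusted p = 0.318), and 20.3% of genes were wholly lower in the same comparison. The pooled geriatric difference was -0.06, with a 95% interval from -0.39 to 0.26.

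Among the other INK4 genes, Cdkn2b, the p15 gene known as a target of TGF-beta signalling, had 0.818, 0.966 and 1.41 RPKM in middle-aged libraries. VCAM1-high libraries had 1.22, 1.39 and 2.23, VCAM1-low libraries 1.96 and 1.70, and VCAM1-negative libraries 2.02, 2.19 and 2.37. Only the first 2 VCAM1-high values fell within the middle-aged range. The geriatric difference was 0.48 ± 0.16 (adjusted p = 0.0669) and that of VCAM1-negative cells 0.64 ± 0.20 (adjusted p = 0.0505), neither of which passed. At this level the log2(RPKM + 1) scale understates a change, and with a pseudocount of 0.1 the VCAM1-negative difference was 1.01 (adjusted p = 0.0478).

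Cdkn2c, the p18 gene, stood at 29.4, 32.2 and 30.1 RPKM in middle-aged libraries. VCAM1-high libraries had 31.9, 24.0 and 24.3, VCAM1-low libraries 27.3 and 21.3, and VCAM1-negative libraries 24.6, 20.9 and 10.5. The VCAM1-negative libraries all lay below the middle-aged ones, by -0.76 ± 0.27 (adjusted p = 0.0784). They lay wholly lower for 20.3% of all genes. Against VCAM1-high the difference was -0.56, with a 95% interval from -1.16 to 0.03.

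Cdkn2a, whose transcripts encode p16Ink4a and p19Arf from separate first exons that a gene-level RPKM cannot separate, stayed under 1 RPKM in every library. Middle-aged libraries had 0.169, 0.0483 and 0.251 RPKM, and VCAM1-high libraries 0.0538, 0.222 and 0.0777. For VCAM1-low the values were 0.0998 and 0.268, and for VCAM1-negative 0.555, 0.348 and 0.187. At the estimated depths these values correspond to about 1.25 to 16.3 reads. The gene failed the filter on low values (1 RPKM in at least 2 libraries). An exact two-sided permutation test of log2(RPKM + 1) over 8 geriatric and 3 middle-aged libraries gave a difference of 0.08 and p = 0.558, the 1 member so tested. The VCAM1-negative and middle-aged ranges overlapped, and 3 against 3 cannot go below p = 0.10 in such an exact test.

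No Rb family gene passed in any of the 7 comparisons. Rbl2, the p130 gene of resting cells, was the highest, with 10.9, 12.3 and 12.2 RPKM in middle-aged libraries. VCAM1-high libraries had 13.1, 22.0 and 15.8, VCAM1-low libraries 8.18 and 25.0, and VCAM1-negative libraries 11.3, 22.3 and 19.2. All VCAM1-high libraries lay above the middle-aged ones, as did those of 13.8% of genes. The number-1 library was the lowest in each geriatric gate, and the geriatric difference of 0.41 had a 95% interval from -0.25 to 1.07. For Rb1 the middle-aged libraries had 7.43, 5.33 and 4.64 RPKM and the geriatric ones 3.37 to 7.60, a difference of -0.05 with an interval from -0.45 to 0.36. Rbl1 outside middle-aged replicate 1 lay between 0.321 and 1.31 RPKM, with an interval from -0.69 to 0.39 for the geriatric difference. Rb1 overlaps Lpar6 and Rcbtb2 on the opposite strand and Rbl2 overlaps Aktip, while Cdkn1a and Cdkn1c overlap AC167363.2 and Gm44732, and as the labels do not state whether counting used strand, reads of these genes could be shared.

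Between VCAM1-negative and VCAM1-high cells no member passed, nor did any of 11568 genes (0%), although 755 (6.53%) had an unadjusted p under 0.05 in limma, 0 of the 9 members among them. When the 8 geriatric libraries were blocked by replicate number, which the data support, 500 of 11325 genes passed (4.42%) and again no member. Within the 3 replicate numbers, Cdkn1c and Cdkn2b were higher in VCAM1-negative cells each time, as were 13.4% of genes, and so was Cdkn2a, which was not in the fit. Cdkn1b, Cdkn2c and Rbl1 were lower each time, as were 30.6% of genes. The widest of the 9 intervals was that of Cdkn1c (-0.88 to 2.09) and the narrowest that of Cdkn1b (-0.55 to 0.22). VCAM1-low cells, with 2 libraries, gave no passing member against either other gate (0% of genes), and 0 members had an unadjusted p under 0.05. In the F test among the 4 groups, where 3.32% of genes passed, no member did, the lowest values being Cdkn2d (adjusted p = 0.0951) and Cdkn1a (0.128).

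Genes that the inhibitors act on or answer to were taken from 9 lists, counted here for geriatric against middle-aged cells. In that comparison the median over all genes was -0.01 and 15.8% of all genes passed. Of 11 CDK and cyclin genes tested, 5 were lower and 0 higher (median -0.78): the D cyclins Ccnd1 (-2.56 ± 0.42, adjusted p = 0.00578) and Ccnd3 (-1.31 ± 0.24, adjusted p = 0.00852), their kinase Cdk4 (-1.07 ± 0.26, adjusted p = 0.0213), and Ccne1 (-1.67) and Cdk2 (-0.78), the last pair named after their values were seen. Ccnd1 stood at 18.5, 5.34 and 20.7 RPKM in middle-aged libraries. VCAM1-high libraries had 1.86, 1.75 and 7.58, VCAM1-low libraries 0.801 and 0.706, and VCAM1-negative libraries 1.11, 0.499 and 0.951. The VCAM1-high library with 7.58 RPKM was replicate 3, and its value lay within the middle-aged range. Ccnd3 had 314, 156 and 260 RPKM in middle-aged libraries and 72.0 to 169 in geriatric ones, with VCAM1-high replicate 3 again the highest. In VCAM1-negative against middle-aged cells the same 5 genes passed as lower. Without middle-aged replicate 1, the library rich in mitosis transcripts, 2 of 10 remained (Ccnd1 and Ccnd3), while 521 of all genes passed in place of 1833. Without the 3 number-3 libraries 4 of 9 were lower, while 1120 of all genes passed. Fewer of the 11 genes met the filter on low values in these smaller sets.

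Of 14 E2F and DREAM genes, which form the repressor complexes with the pocket proteins, 1 was higher and 2 were lower. Over all genes 15.8% passed in this comparison. Lin52, a subunit of DREAM, rose by 1.59 ± 0.34 (adjusted p = 0.0155). E2f3 fell by 0.99 on the log2 scale and Tfdp1, the DNA-binding partner of E2Fs, differed by -1.05 (adjusted p = 0.00715 and 0.0189). Without middle-aged replicate 1, Tfdp1 no longer passed (-0.82, adjusted p = 0.0948). Of the replication genes that E2F controls, 0 of 15 passed (3 at an unadjusted p under 0.05; median -0.27), and of the mitosis genes 0 of 10 (1 unadjusted; median -0.33). In VCAM1-negative against middle-aged cells, where 14.4% of all genes passed, 1 of the 15 replication genes did. It was Rrm2, a subunit of ribonucleotide reductase, which was lower (-1.13, adjusted p = 0.0338). That call ended when middle-aged replicate 1 was left out (adjusted p = 0.0973). The medians of both lists were above 0 without middle-aged replicate 1 (0.41 and 0.16), and 0 genes of either passed then.

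Wee1, a kinase that holds CDK1 and CDK2 inactive, was lower in geriatric cells by -1.70 ± 0.24 (adjusted p = 0.00303), the 1 of 5 further inhibitor genes to pass. It stood at 52.1, 38.6 and 40.2 RPKM in middle-aged libraries and at 7.75 to 28.3 in geriatric ones. The libraries did not overlap, as for 4.95% of genes that were wholly lower. In VCAM1-negative against middle-aged cells Cables2, a CDK-binding protein, also passed, as higher (0.77, adjusted p = 0.0473). Of 13 genes for the turnover of inhibitors and cyclins, 2 passed in the geriatric comparison, where 15.8% of all genes did. Fbxo31, an F-box protein that targets cyclin D1, was higher (1.08 ± 0.17, adjusted p = 0.00489). Cks1b, which helps SCF-Skp2 bind p27, was lower (-0.96, adjusted p = 0.0365). For Fbxo31 the middle-aged libraries had 9.39, 8.14 and 10.2 RPKM and the geriatric ones 12.2 to 29.3, again without overlap. The share of all genes that were wholly higher was not counted. Wee1 and Fbxo31 were named for their small adjusted p, so their lack of overlap is no further support. Without middle-aged replicate 1, Wee1 (adjusted p = 0.0204) and Fbxo31 (0.0246) passed and Cks1b (0.127) did not, nor did Cables2 in VCAM1-negative cells (0.109). Without the number-3 libraries Cks1b (0.0541) and Cables2 (0.142) did not pass either.

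**Figure D5:**
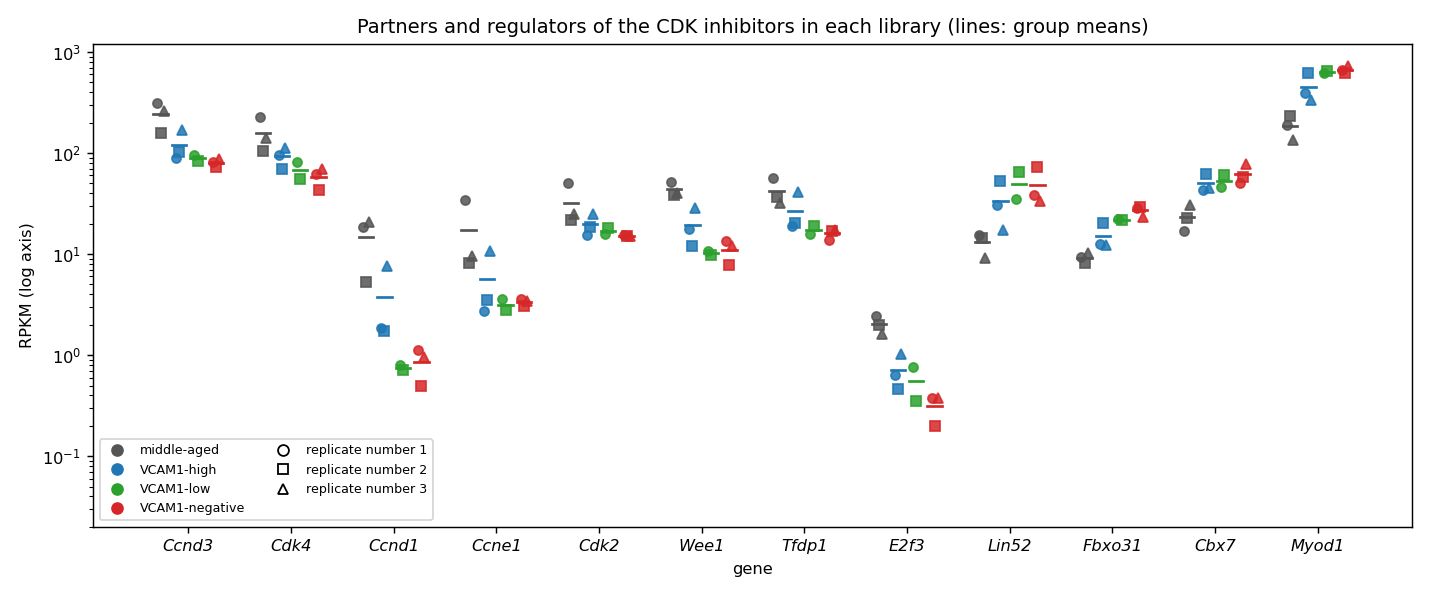
Level in RPKM (log axis) of 12 partners and regulators of the inhibitors in each library, with group colours, replicate symbols and lines for group means. Ccnd1, Ccnd3 and Wee1 are lower in most geriatric libraries, and Fbxo31, Cbx7 and Myod1 are higher in all of them.

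Of 18 transcription factors known to act on these genes, 4 were higher and 2 lower (median 0.41). Myod1, which drives Cdkn1a in differentiating myoblasts, was higher by 1.65 ± 0.21 (adjusted p = 0.00189), from 135 to 231 RPKM at middle age to 338 to 725 in geriatric libraries. Smad3, the TGF-beta effector, was higher by 0.72 (adjusted p = 0.0134) and Myc by 0.78 (adjusted p = 0.0169). The Myc call ended without middle-aged replicate 1 (0.60, adjusted p = 0.0808) and the Smad3 call without the number-3 libraries (0.67, adjusted p = 0.0502). Hes1, a Notch target, was higher by 0.93 (adjusted p = 0.0183), and in VCAM1-negative against middle-aged cells by 1.05 (adjusted p = 0.0254). Hey1, another Notch target, went the other way (-0.94, adjusted p = 0.0460) and was named after its values were seen. Trp53, the gene of p53 itself, was named after its values were seen: it was lower by -0.53 (adjusted p = 0.0365). Of 14 tested p53 targets other than Cdkn1a, 0 passed (3 at an unadjusted p under 0.05, median -0.05). Such unadjusted values were common among all 11568 genes in this comparison. By limma p-value, Cdkn2b (unadjusted p = 0.0134) ranked only 2320 and Cdkn2c (0.0817) 4737. The count under 0.05 lay between these ranks, so the 3 targets do not stand out. Mdm2, the ubiquitin ligase that p53 induces, held 78.2, 56.9 and 50.6 RPKM at middle age, and the geriatric libraries 52.3 to 65.4. Among 13 Polycomb and chromatin genes of the Ink4 locus, 1 passed, where 15.8% of all genes did. It was Cbx7, a Polycomb subunit, which was higher (1.21 ± 0.21, adjusted p = 0.00714), from 17.0 to 30.4 RPKM to 43.2 to 77.9. Between VCAM1-negative and VCAM1-high cells 0 genes of the 9 lists passed without a block. With the paired geriatric libraries blocked, 4.42% of all genes passed. From the 9 lists only Cdk4 and Fbxo31 did so. In VCAM1-negative cells Cdk4 was lower (-0.66 ± 0.09, adjusted p = 0.0174) and Fbxo31 higher (0.84 ± 0.15, adjusted p = 0.0295).

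The genes whose levels followed those of single members most closely were sought among 7522 genes by Pearson's r of log2(RPKM + 1) over the 11 libraries, which share groups and replicate numbers. For Cdkn1a they were Per1, a circadian clock gene (r = 0.87), Thoc6 (0.85) and Rtl8a (0.81). Those of Cdkn1c were Prim1, a DNA primase subunit (0.91), Stmn1 (0.89) and Rce1 (0.87), and the first 2 were highest in middle-aged replicate 1, at 19.8 and 101 RPKM. Cdkn1b was followed by Picalm (0.90), Kdm6b (0.84) and Map3k12 (0.82), and Rb1 by Zfp24 (0.92), Ddb1 (0.89) and Heatr1 (0.87). These are descriptions of 11 libraries and the highest of many values.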

How the data were processed

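The authors deposited RPKM values per gene symbol for 11 libraries, prepared with a SMART-Seq v4 kit for low input, per the labels' protocols. Tools named in the submitters' processing notes are cutadapt 3.1, Bowtie2 2.1.0, STAR 2.7.5b and SAMtools 0.1.19, with build GRCm39. Neither the labels nor the table name the counting tool, the gene lengths or the strand setting. RPKM is no count, so differences of log2(RPKM + 1) were tested with limma 3.58.1 (R 4.3.3, variance trend, 4 group means, no block), on the 11568 genes that reached 1 RPKM in 2 or more libraries. Adjusted p is Benjamini-Hochberg over all genes tested, and 0.05 the threshold in 7 comparisons and an F test. The members and lists were chosen with earlier results of these data known. From each list, up to 3 genes with the smallest adjusted p per main comparison were named. Depth was estimated from steps in low values (0.1 RPKM or less) of 3427 single-transcript genes. The depth taken was the one at which most of these fell within 0.1 of a whole read, 63.5 to 73.2% of them. Chance gives 20% at a single fixed depth, which is not the chance level of such a maximum. The depths are only estimates, so no count test was run.

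Same-numbered geriatric libraries deviated together (r = 0.40 to 0.58 over genes), so the numbers pair them. The pairing comes from the data, not the labels. Same-numbered VCAM1-high and middle-aged libraries had r of 0.21, 0.33 and 0.55. Middle-aged replicate 2 with VCAM1-high replicate 1 also had 0.33, so numbers 1 and 2 were not told apart there. VCAM1-low and middle-aged pairs had 0.15 and 0.03. VCAM1-negative and middle-aged pairs did not deviate together (-0.02 to 0.08). Scripts were tested on simulated data. Alternatives were another pseudocount, filters, 2 rescalings, only the groups compared, the block, and each library left out; a term for the number-3 libraries, averaging by number and list counts without middle-aged replicate 1 or the number-3 libraries were added after seeing the data. Promoter windows came from a RefSeq table, and Python 3.11.15 with pandas 2.3.3 and scipy 1.17.1 was used.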

Additional observations from a re-analysis of the deposited data

Results flagged for a closer look

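Among the 8 geriatric libraries, Cdkn1c in VCAM1-negative replicate 3 (165 RPKM) stood apart from the others (65.4 to 92.5 RPKM). The gap to its neighbour was 0.728 of the whole range, above the 95% critical value for 8 values. The 10 members were each checked in this way, and chance alone flags about 1 in 20 such groups. Its myofibre marker sum was 5128 RPKM, while VCAM1-negative replicate 2, with a sum of 6635 RPKM, held 85.9 RPKM of Cdkn1c.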

How the results depend on the processing

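Of 1273 alternative values of the members' differences, 1174 kept their direction and side of the threshold, 19 no longer passed, 26 newly passed and 54 changed sign, 0 of these passing. Of 326 alternative counts of passing genes or members, 227 stayed within 1.5 times the main count. Counts of passing members moved as follows. In VCAM1-negative against middle-aged cells the 1 became 0 with no filter on low values, 2 with a pseudocount of 0.1 or median-ratio scaling, 4 with the replicate block in 11 libraries or the number-3 term, and 0 to 2 with 1 library left out. In the geriatric comparison the 2 became 1 with no filter, 0 with averaging by number, and 0 to 2 with 1 library left out; the block and the number-3 term brought in Cdkn2b (0.51, adjusted p = 0.0169 and 0.0264). For VCAM1-high against middle-aged cells the 0 became 2 with the replicate block, 1 with the number-3 term, and 0 to 1 with 1 library left out. VCAM1-low against middle-aged cells went from 0 to 1 with an equal sum, a mean of 5 RPKM, only the groups compared, the replicate block, the number-3 term or no number-3 libraries, and gave 0 to 1 with 1 library left out. The F test went from 0 to 2 with the replicate block and 1 with the number-3 term, and gave 0 to 1 with 1 library left out. The 4 members under the block in VCAM1-negative against middle-aged cells, whose numbers did not pair, were Cdkn2d (adjusted p = 0.00542), Cdkn2b (0.0144), Cdkn1a (0.0217) and Cdkn2c (0.0278); the block changed no member's call among the gates. With no filter the geriatric Cdkn1a call (adjusted p = 0.0712) and the VCAM1-negative Cdkn2d call (0.0696) ended. The causes were not tested.

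Genes passing overall in the geriatric comparison (1833) became 1184 with no filter, 3569 with the block, 1120 without the number-3 libraries, 241 with averaging by number and 521 to 2269 with 1 library left out. In VCAM1-negative against middle-aged cells (1671) they became 870, 3656, 826 and, with 1 left out, 339 to 1836. In VCAM1-high against middle-aged cells (70) they became 20 with no filter, 14 with only the groups compared, 807 with the block, 165 with the number-3 term and 18 to 240. In VCAM1-low against middle-aged cells (475) they became 104 with no filter, 1827 with the block and 1 to 825. Between VCAM1-negative and VCAM1-high cells the 0 became 22 with a pseudocount of 0.1, 18 with a mean of 5 RPKM, 13 with an equal sum or the number-3 term, 16 with the median ratio, 65 with the block in 11 libraries, 500 in the 8 geriatric ones, 9 without number 3, and 0 to 128 with 1 left out. VCAM1-low against VCAM1-high went from 0 to 1 with the block in 8, and VCAM1-negative against VCAM1-low gave 0 to 117 with 1 left out. The F test (384) gave 39 with no filter, 660 with the number-3 term, 2025 with the block, 251 without number 3 and 39 to 633.

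Values that changed sign with the other settings were as follows. With the number-3 term, VCAM1-negative against VCAM1-low gave 0.0036 for Cdkn1a and 0.0030 for Cdkn2d. With the replicate block in 11 libraries, VCAM1-negative against VCAM1-low gave 0.0036 for Cdkn1a and 0.0030 for Cdkn2d. With the replicate block in the 8 geriatric libraries, VCAM1-negative against VCAM1-low gave 0.018 for Cdkn1a and 0.039 for Cdkn2d. Without the 3 number-3 libraries, VCAM1-negative against VCAM1-low gave 0.13 for Cdkn1a and -0.013 for Rbl1, and VCAM1-low against middle-aged cells gave -0.33 for Cdkn1c, and VCAM1-negative against middle-aged cells gave -0.28 for Cdkn1c and -0.13 for Rb1, and geriatric against middle-aged cells gave -0.41 for Cdkn1c, and VCAM1-negative against VCAM1-high gave -0.030 for Cdkn2d, -0.016 for Rb1 and -0.087 for Rbl2, and VCAM1-high against middle-aged cells gave -0.11 for Rb1 and -0.19 for Rbl1. With averaging by number, geriatric against middle-aged cells gave 0.019 for Rb1.

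With 1 library left out, these differences crossed 0 within the ranges that follow. VCAM1-negative against VCAM1-low gave -0.33 to 0.13 for Cdkn1a, -0.033 to 0.33 for Rbl1 and -0.53 to 0.97 for Rbl2. VCAM1-high against middle-aged cells gave -0.19 to 0.012 for Cdkn1b, -0.72 to 0.93 for Cdkn1c, -0.059 to 0.23 for Rb1 and -0.12 to 0.39 for Rbl1. Geriatric against middle-aged cells gave -0.16 to 0.040 for Cdkn1b, -0.43 to 1.21 for Cdkn1c, -0.17 to 0.12 for Rb1 and -0.32 to 0.18 for Rbl1. VCAM1-low against middle-aged cells gave -0.47 to 1.18 for Cdkn1c, -0.49 to 0.015 for Rbl1 and -0.48 to 1.03 for Rbl2. VCAM1-negative against middle-aged cells gave -0.11 to 1.54 for Cdkn1c, -0.0076 to 0.28 for Rb1 and -0.36 to 0.14 for Rbl1. VCAM1-low against VCAM1-high gave -0.30 to 0.043 for Cdkn2c and -0.94 to 0.56 for Rbl2. VCAM1-negative against VCAM1-high gave -0.10 to 0.59 for Cdkn2d, -0.071 to 0.15 for Rb1 and -0.16 to 0.30 for Rbl2. Where a VCAM1-low library was left out, the lone one was assumed to vary like the other groups. Low read numbers limit Cdkn2a most.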
